A study of Mus musculus with 26 samples.

Results

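The genes described here are the subunits and assembly factors of the proteasome. They are the 47 genes of 31977 shared by all count tables whose symbol begins with Psm, one of the letters a to g and a number, leaving out the immunoproteasome genes Psmb8, Psmb9 and Psmb10. Of the 47, 46 passed the low-count filter and were tested, and Psmb11 did not pass it. The data are 26 RNA-seq libraries from TRAP, translating ribosome affinity purification, in which ribosomes carrying a tagged protein are pulled down with antibodies and the messenger RNA on them is sequenced. All libraries came from dorsal striatum of adult Drd2-EGFP/Rpl10a mice (line CP101), in which the ribosomal protein Rpl10a fused to EGFP is made in cells that express the D2 dopamine receptor gene. The line, on an FVB/N-Swiss Webster background, had been crossed to C57BL/6 for at least 9 generations. Mice had self-administered saline or cocaine intravenously under long access. The 23 immunopurified (IP) libraries comprised 9 from non-escalating withdrawal mice, 5 from saline withdrawal mice, 2 from escalating mice, 4 from non-escalating mice and 3 from saline mice. The non-escalating withdrawal, escalating and non-escalating groups took cocaine and the other two took saline. The withdrawal groups were collected after withdrawal, and the sources used here do not give its length. The 3 input libraries, made from tissue before purification, came from saline withdrawal, non-escalating and saline mice, 1 each. No label says that libraries of a group came from separate animals, so the p-values rest on library-to-library spread, which may be technical.

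The proteasome is the protease that degrades most proteins tagged with ubiquitin. Its barrel-shaped core has outer rings of alpha subunits that gate the entrance and inner rings of beta subunits, among which Psmb5, Psmb6 and Psmb7 carry the chymotrypsin-like, caspase-like and trypsin-like active sites. Regulatory particles cap the core: a base of ATPases (Psmc genes) unfolds the substrate, and non-ATPase subunits (Psmd genes) bind and remove ubiquitin. Other caps (Psme genes) open the core without ubiquitin, and dedicated chaperones (Psmg genes with Psmd5, Psmd9 and Psmd10) assist assembly. In neurons the proteasome also trims synaptic proteins, and cells raise its subunits together through the transcription factor Nfe2l1.

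Gene counts per library were 3279457 to 19122303 in IP libraries and 5016587 to 11549493 in inputs. Library numbers were taken as 2 runs, set A with all escalating, non-escalating and saline libraries, and set B, while both withdrawal groups hold both sets. For set A libraries other than saline withdrawal replicate 2, the number used is the one the title says the library copies. Their own numbers lie apart from both runs, so set A rests on reading this mark as the library's number. The share of uniquely aligned reads that the counter put in no gene ran from 21.2% to 70.7% in IP libraries and from 27.3% to 31.6% in inputs. By group it averaged 40.7% ± 13.2 in non-escalating withdrawal, 47.5% ± 15.3 in saline withdrawal, 33.4% ± 0.883 in escalating, 31.9% ± 11.1 in non-escalating and 39.0% ± 10.7 in saline IP libraries (SD, n = 9, 5, 2, 4 and 3). The markers of the labelled cells followed the labels: Drd2 was higher in IP than in input libraries (log2 difference 2.79 ± 0.38 SE), and 6 of 7 indirect-pathway markers were called higher. In such bulk samples fewer cells of a type and less RNA per cell cannot be told apart.

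Proteasome messages were present throughout. Levels below are CPM (counts per library size, scaled with TMM), divided by the exon length in kilobases where genes are compared with each other. The summed level of all 47 genes was 1981 ± 409 CPM in non-escalating withdrawal, 1724 ± 440 in saline withdrawal, 2185 ± 74.7 in escalating, 2247 ± 335 in non-escalating and 2032 ± 280 in saline IP libraries (SD). The ranges of the first 2 groups, 1339 to 2587 and 1280 to 2351 CPM, overlapped each other and the mean of every other group. The inputs held 2274 CPM (saline withdrawal), 2276 CPM (non-escalating) and 2145 CPM (saline).

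By role and per kb of exon, the 3 catalytic subunits lay closest together, with median levels over the 23 IP libraries of 26.8 CPM per kb for Psmb7, 24.4 for Psmb5 and 22.5 for Psmb6. The 7 alpha subunits ran from 4.70 to 32.8 CPM per kb (Psma1 and Psma6) and the 4 non-catalytic beta subunits from 7.72 to 41.0 (Psmb1 and Psmb2). The ATPases ran from 3.48 CPM per kb for Psmc6 to 79.9 for Psmc5, the highest member per kb of exon. Non-ATPase subunits ran from 4.76 (Psmd13) to 32.7 (Psmd7, which pairs with the deubiquitinase Psmd14 in the lid). Among activators, Psme3, a nuclear cap, stood at 40.0 CPM per kb and the inhibitor Psmf1 at 3.36. The 7 assembly chaperones were low, from 0.743 CPM per kb for Psmg3 to 4.51 for Psmd10. The subunits that other tissues use in place of these were near 0: Psma8, a testis alpha subunit, had a median of 0.0715 CPM per kb, and Psmb11, the thymus catalytic subunit, had 2 counts in all, both in non-escalating IP libraries. The order depends on the length used: with coding length in place of exon length, 7 of the 10 highest members stayed in the first 10. Per coding kb Psme3 was highest at 141 CPM and Psmc5 had 86.1, while the catalytic subunits ran from 27.7 to 110 and so lay no closer together than the non-catalytic beta subunits (29.2 to 81.8).

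**Figure D1:**
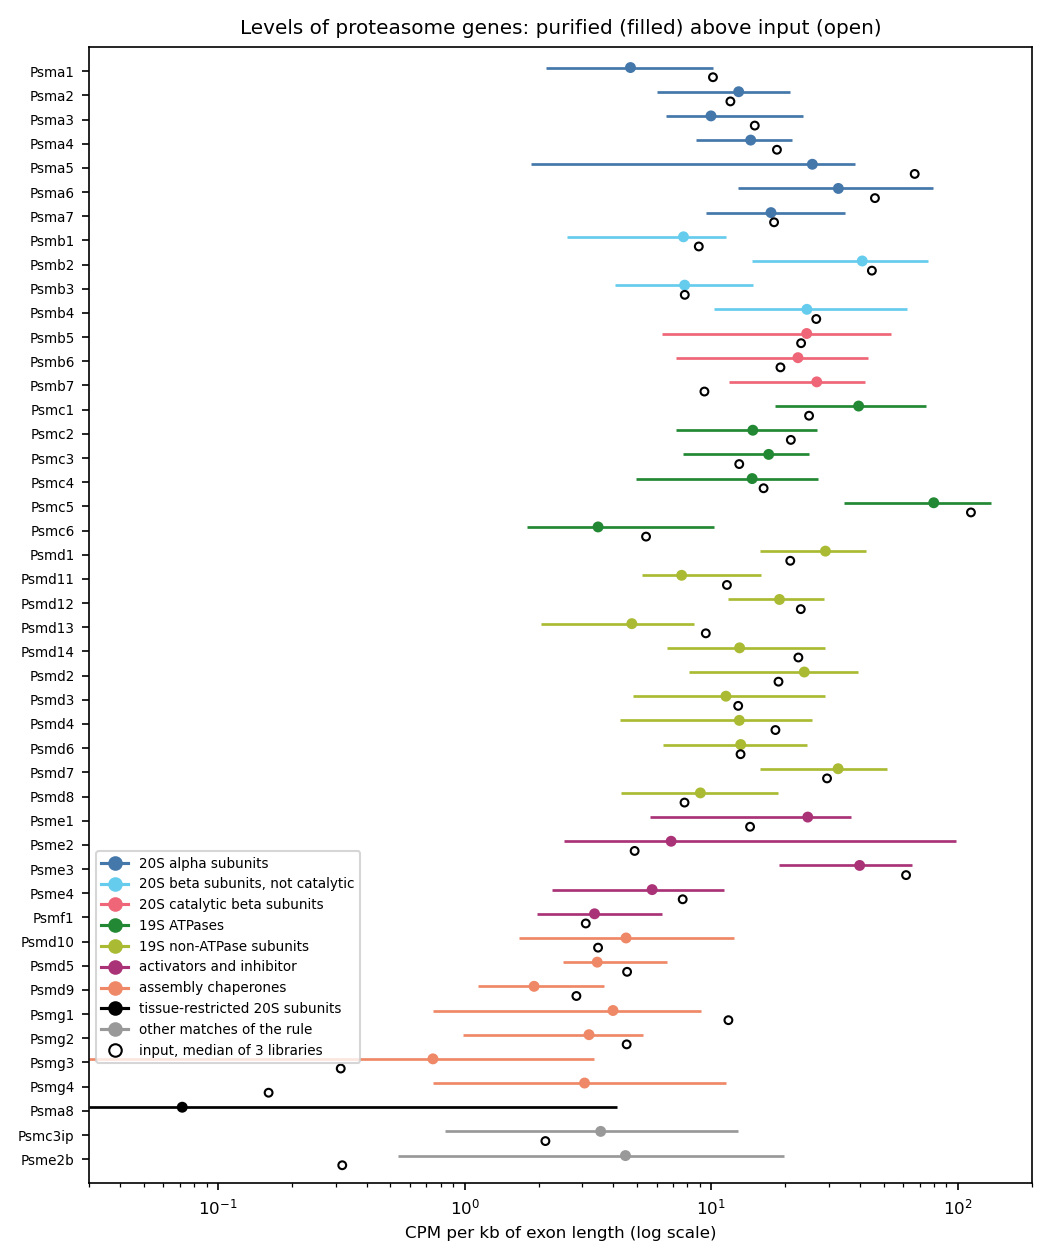
Levels of the proteasome genes over the 23 IP libraries, in CPM per kb of exon on a log axis, ordered by role, with filled points at the median, lines from the lowest to the highest library and open points at the median of the 3 inputs. Psmc5 is highest at 79.9 and Psma8 lowest of those drawn, and the assembly chaperones lie at 4.51 or lower. The ranges of Psmg3 and Psma8 reach 0 and stop at the left edge, and Psmb11, whose median is 0, is not drawn.

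Promoter windows are shown as examples for the catalytic subunits Psmb5 and Psmb6, the activator Psme4 and the ATPase Psmc5. They do not represent the members: Psmb6 was not called in any comparison, and the called members Psma5, Psmd13 and Psmc6 are not shown. Each window holds 250 bases before and 50 bases after the start site, from RefSeq on GRCm38.p6, written on the gene's strand. The windows lie at chr14:54617946-54618245 (minus strand) for Psmb5, chr11:70525107-70525406 (plus) for Psmb6, chr11:30771525-30771824 (plus) for Psme4 and chr11:106255935-106256234 (plus) for Psmc5. Capitals mark the core of the antioxidant response element TGACNNNGC, read on both strands, the element that Nfe2l1 binds. Psmc5 holds no match.
Psmb5: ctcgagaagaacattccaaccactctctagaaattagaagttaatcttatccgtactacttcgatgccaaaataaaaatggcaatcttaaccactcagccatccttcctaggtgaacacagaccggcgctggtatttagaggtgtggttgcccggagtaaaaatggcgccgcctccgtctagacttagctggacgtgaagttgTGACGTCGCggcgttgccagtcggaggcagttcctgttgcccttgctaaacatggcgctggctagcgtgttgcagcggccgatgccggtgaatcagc
Psmb6: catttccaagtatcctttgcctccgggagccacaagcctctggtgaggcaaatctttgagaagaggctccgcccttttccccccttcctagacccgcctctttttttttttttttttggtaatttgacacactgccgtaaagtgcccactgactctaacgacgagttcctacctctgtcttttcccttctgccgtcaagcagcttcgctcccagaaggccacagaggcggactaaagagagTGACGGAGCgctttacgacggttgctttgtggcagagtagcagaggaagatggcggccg
Psme4: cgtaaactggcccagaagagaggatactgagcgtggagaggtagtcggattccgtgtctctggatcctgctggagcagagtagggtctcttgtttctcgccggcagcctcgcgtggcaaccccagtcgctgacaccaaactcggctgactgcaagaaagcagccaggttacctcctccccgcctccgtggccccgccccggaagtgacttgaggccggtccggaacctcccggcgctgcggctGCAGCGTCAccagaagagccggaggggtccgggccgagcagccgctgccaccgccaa
Psmc5: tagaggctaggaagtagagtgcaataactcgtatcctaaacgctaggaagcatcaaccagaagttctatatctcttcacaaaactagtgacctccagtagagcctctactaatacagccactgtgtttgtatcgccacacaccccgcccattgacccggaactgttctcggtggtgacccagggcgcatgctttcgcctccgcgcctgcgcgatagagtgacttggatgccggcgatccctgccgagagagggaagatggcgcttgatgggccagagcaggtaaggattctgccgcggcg

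The match began at position -47 from the start in Psmb5 and at -9 in Psmb6, both on the gene's strand, and at -7 on the opposite strand in Psme4. Of 39 members with a promoter entry, 6 (15.4%) held the element, against 14% of all 27025 genes with an entry. The others were Psmc6, Psmd12 and Psmd9. The CCAAT box stood in 14 of the 39 (35.9%, against 41.1% of all genes) and TATAAA in 3 (7.69%, against 15.7%). These were also read on both strands, and matches of different motifs may share bases.

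Between IP and input libraries the proteasome genes lay on both sides of 0, and 3 members differed. Psmb7, the subunit with trypsin-like activity, was higher in IP libraries, and the alpha subunit Psma5 and the lid subunit Psmd13 were lower. The fit, with terms for condition and set, held the 3 inputs and the 12 IP libraries of saline withdrawal, non-escalating and saline mice. Calls here and below are edgeR's quasi-likelihood test with Benjamini-Hochberg adjustment over all genes tested, at an adjusted p under 0.05, and differences are on the log2 scale with their SE. The 1 member called higher stands beside 3.58% of all 15610 genes, and the 2 called lower beside 3.8%. Of the 46 members, 23 lay above 0 and 23 below, with a median of -0.02 (-0.11 to 0.08 on leaving out a library) against 0.16 over all genes.

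Psmb7 had 42.6 CPM in the lowest, 93.6 in the median and 144 in the highest IP library, against 31.6 CPM in the saline withdrawal, 32.1 in the non-escalating and 63.6 in the saline input. The saline withdrawal and non-escalating inputs lay below every IP library, and the saline input lay within their range. The difference was 1.24 ± 0.31 (adjusted p = 0.0272 by edgeR). Its exons share 405 bases (11.8%) with Nek6, where counting without strand could leave reads out as ambiguous. Ambiguous reads made up 0.942% to 2.85% in IP and 8.61% to 12.8% in input libraries. Their part in the difference of Psmb7 was not tested. Adjusted p was 0.0975 without the saline withdrawal input and 0.167 without the non-escalating input, and within set A alone, with 2 inputs, it was 0.0881.

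Psma5 had 14.5, 32.1 and 47.1 CPM in the lowest, median and highest IP library, against 88.9 CPM in the saline withdrawal, 74.3 in the non-escalating and 88.3 in the saline input. All 3 inputs were above all 12 IP libraries, and the difference was -1.37 ± 0.32 (adjusted p = 0.0193 by edgeR). Psmd13 had 7.25, 16 and 19.2 CPM in the lowest, median and highest IP library, against 57.5, 32.1 and 25.4 CPM in the same order of inputs. The groups did not overlap here either, with a difference of -1.30 ± 0.33 (adjusted p = 0.0290 by edgeR). How many of all genes have inputs and IP libraries without overlap was not counted, so this adds nothing to the calls. The exons of Psmd13 share 342 bases (10.1%) with Sirt3, where counting without strand could likewise leave reads out as ambiguous. The part of such reads in its difference was not tested. Both calls rest on few inputs. Leaving out 1 input gave adjusted p of 0.0746 to 0.0873 for Psma5. For Psmd13 it gave 0.169 without the saline withdrawal input and 0.12 without the non-escalating input, and 0.0553 without saline withdrawal set B replicate 2. Within set A alone adjusted p was 0.098 for Psma5 and 0.206 for Psmd13. Set B holds 1 input, so its fit assumes that this input varies as the IP libraries do, and there adjusted p was 0.0486 for Psma5, 0.0206 for Psmd13 and 0.125 for Psmb7.

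The other catalytic subunits also lay above 0 but were not called. Psmb5 differed by 1.01 ± 0.57 and Psmb6 by 0.75 ± 0.37. Psmb5 had 5.68, 20.6 and 48.1 CPM in the lowest, median and highest IP library, against 1.82 CPM in the saline withdrawal, 20.8 in the non-escalating and 21.2 in the saline input. Psmb6 had 21.2, 49.5 and 63.8 CPM in IP libraries, against 8.86, 52.5 and 35.7 CPM in the same order of inputs. For both, only the saline withdrawal input lay below the IP libraries. That input also held little Psme2 (0.909 CPM, against 8.63 and 12.4 in the non-escalating and saline inputs), a subunit of the immune activator cap, and more Psme3 (324, against 102 and 182 CPM).

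By role the median difference was -0.30 for alpha subunits, 1.01 for catalytic subunits and 0.02 for the non-catalytic beta subunits. It was -0.23 for ATPases, -0.06 for non-ATPase subunits, 0.14 for activators with the inhibitor and -0.04 for chaperones. The activator Psme4, which directs the core to acetylated histones, differed by -0.76 ± 0.26 (adjusted p = 0.0848 by edgeR). The ubiquitin receptor Psmd4 differed by -0.22 ± 0.33, Psmd14 by -0.84 ± 0.32 and the inhibitor Psmf1 by 0.54 ± 0.39, and none was called. Psme2b, a copy of Psme2 on chromosome 11, differed by 3.24 ± 1.23 (adjusted p = 0.114 by edgeR). Reads that match both copies alike could be missing from both counts, which was not tested. Psma8 had no count in any input, and its IP mean was at least 8.46-fold higher, taking 3 counts over the 3 inputs as the floor. The median over members was the same with Psma8 at that bound. Without adjustment 13 of 46 members had p under 0.05 by edgeR, beside 26.3% of all genes.

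Of genes around the proteasome, none of 12 partner genes, 10 regulators of proteasome transcription, 5 shuttle factors or 6 ubiquitin and E1 genes was called in this comparison. Among the immunoproteasome genes that replace the catalytic subunits in immune cells, Psmb8 was higher (6.77 ± 1.72, adjusted p = 0.0274 by edgeR). Its count was 0 in 2 of the 3 inputs, so the size of this difference rests on input values near 0. Psmb10 differed by 0.71 and was not called. Psmb9 had no count in the inputs and was at least 67.3-fold higher, with adjusted p = 0.0554. Endothelial markers moved the same way: 3 of 6 were called higher, and their summed level was 160 to 5448 CPM in the 12 IP libraries, against 43.4 to 498 CPM in the inputs, with no marker at 0 in any of these libraries. Other lists moved the other way. Markers called lower in IP libraries were 5 of 6 for astrocytes (median -3.07) and 5 of 6 for oligodendrocytes (-2.42). They were 4 of 6 for direct-pathway neurons (-2.60) and 3 of 5 for GABAergic interneurons (-2.78). For microglia 1 of 5 tested was called lower (median -2.15, with 1 above 0), and for cholinergic interneurons 1 of 4 (-2.02). The part of these cell types in the difference of any member was not tested.

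**Figure D2:**
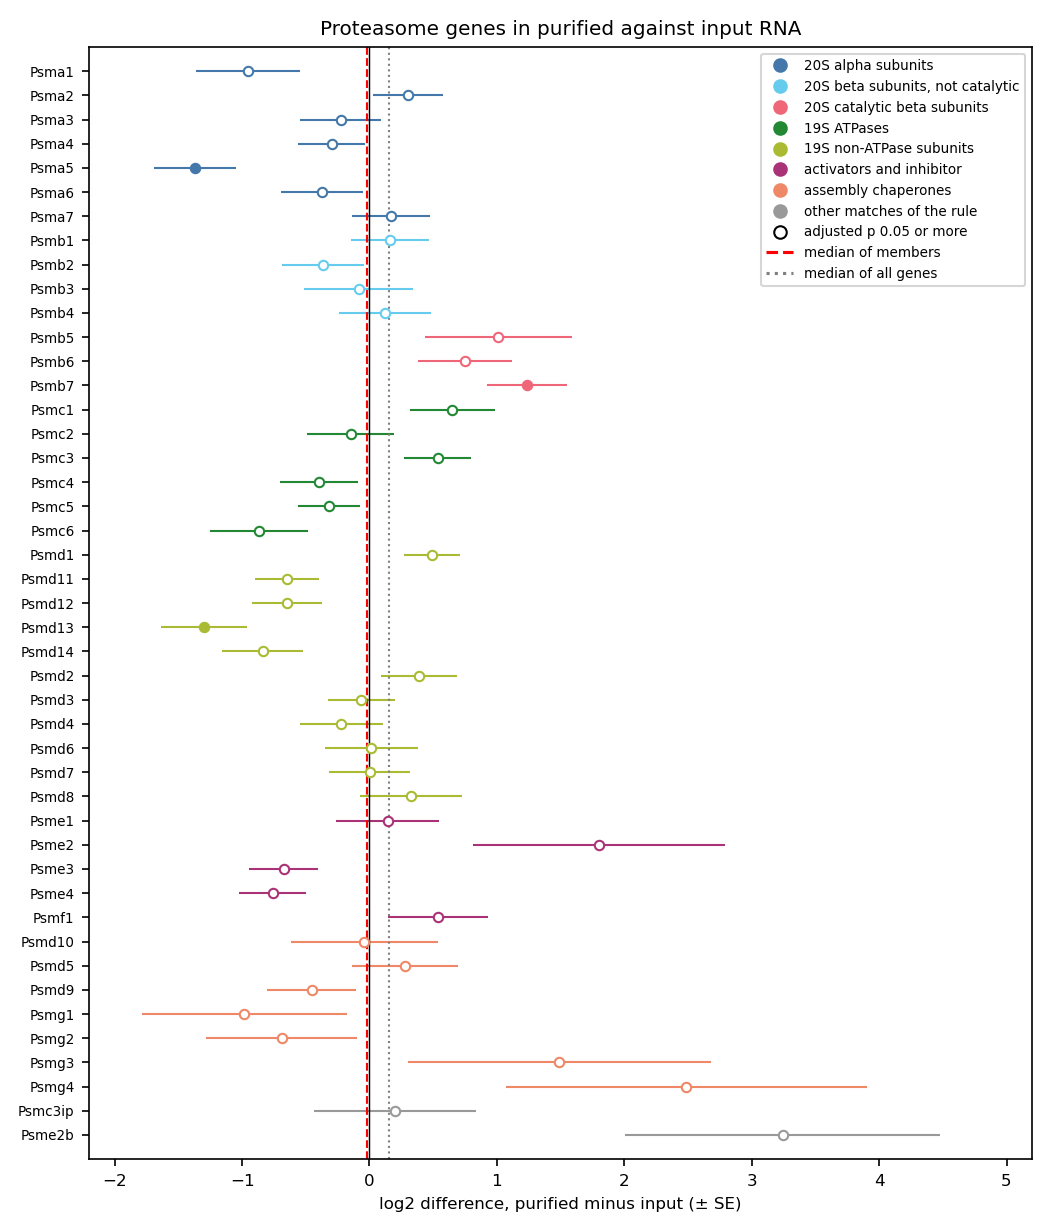
Difference between IP and input libraries for each tested member, in log2 units with bars of 1 SE, by role. Psmb7 at 1.24 and Psma5 and Psmd13 at -1.37 and -1.30 are the members called, and the line for all genes stands at 0.16. Psma8, which has no count in the inputs, is not drawn.

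Among IP libraries, proteasome genes varied with the share of reads outside genes, mostly towards lower levels. Such variation was not particular to them, as 8087 of all 16908 genes were called in either direction. In libraries with a larger share, 7 of the 14 alpha and beta subunits outside Psma8 and Psmb11 and 10 of the 17 regulatory-particle subunits were called lower, and Psme4, Psma8 and Psme2b were called higher. The fit had terms for group and library set, so it compares libraries within them, and the slope is the log2 change for 10 percentage points more reads outside genes. Of 46 members, 18 were called lower and 3 higher, beside 22.8% and 25.1% of all 16908 genes. The median slope was -0.18 against 0.02 over all genes, and 39 of 46 members lay below 0.

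All 4 non-catalytic beta subunits were called lower (median slope -0.31). So were 2 of 3 catalytic subunits, Psmb7 at -0.33 ± 0.07 (adjusted p = 0.000364) and Psmb5 at -0.42 ± 0.11 (0.00298), while Psmb6 had -0.15 ± 0.10 (adjusted p = 0.200, all by edgeR). Among ATPases 3 of 6 were lower, with Psmc5 at -0.35 ± 0.06 (adjusted p = 1.97e-05 by edgeR) and Psmc2 at -0.28 ± 0.06, and Psmc3 lay just past the threshold (adjusted p = 0.0502). Among non-ATPase subunits 7 of 11 were lower. They included the lid subunits Psmd8 (-0.41 ± 0.07) and Psmd3 (-0.35 ± 0.06), the ubiquitin-binding scaffolds Psmd1 (-0.16 ± 0.05) and Psmd2 (-0.30 ± 0.07) and the ubiquitin receptor Psmd4 (-0.28 ± 0.09). The deubiquitinase Psmd14 had -0.21 ± 0.09 (adjusted p = 0.0541 by edgeR).

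Alpha subunits and chaperones differed from these in their counts. Only Psma2 (-0.31 ± 0.06) of 7 alpha subunits was called, with a median slope of -0.15. None of the 7 assembly chaperones was called by edgeR, all 7 lay below 0, and their median was -0.10. No test was made of these differences between roles. The activators split, with Psme4 higher (0.33 ± 0.07, adjusted p = 0.000382) and Psme3 lower (-0.24 ± 0.06, adjusted p = 0.00116, both by edgeR), and the inhibitor Psmf1 had 0.02 ± 0.08. Psma8 had the steepest slope (1.89 ± 0.35, adjusted p = 0.000132), on low counts, and Psme2b had 0.57 ± 0.21 (adjusted p = 0.0242, both by edgeR).

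**Figure D3:**
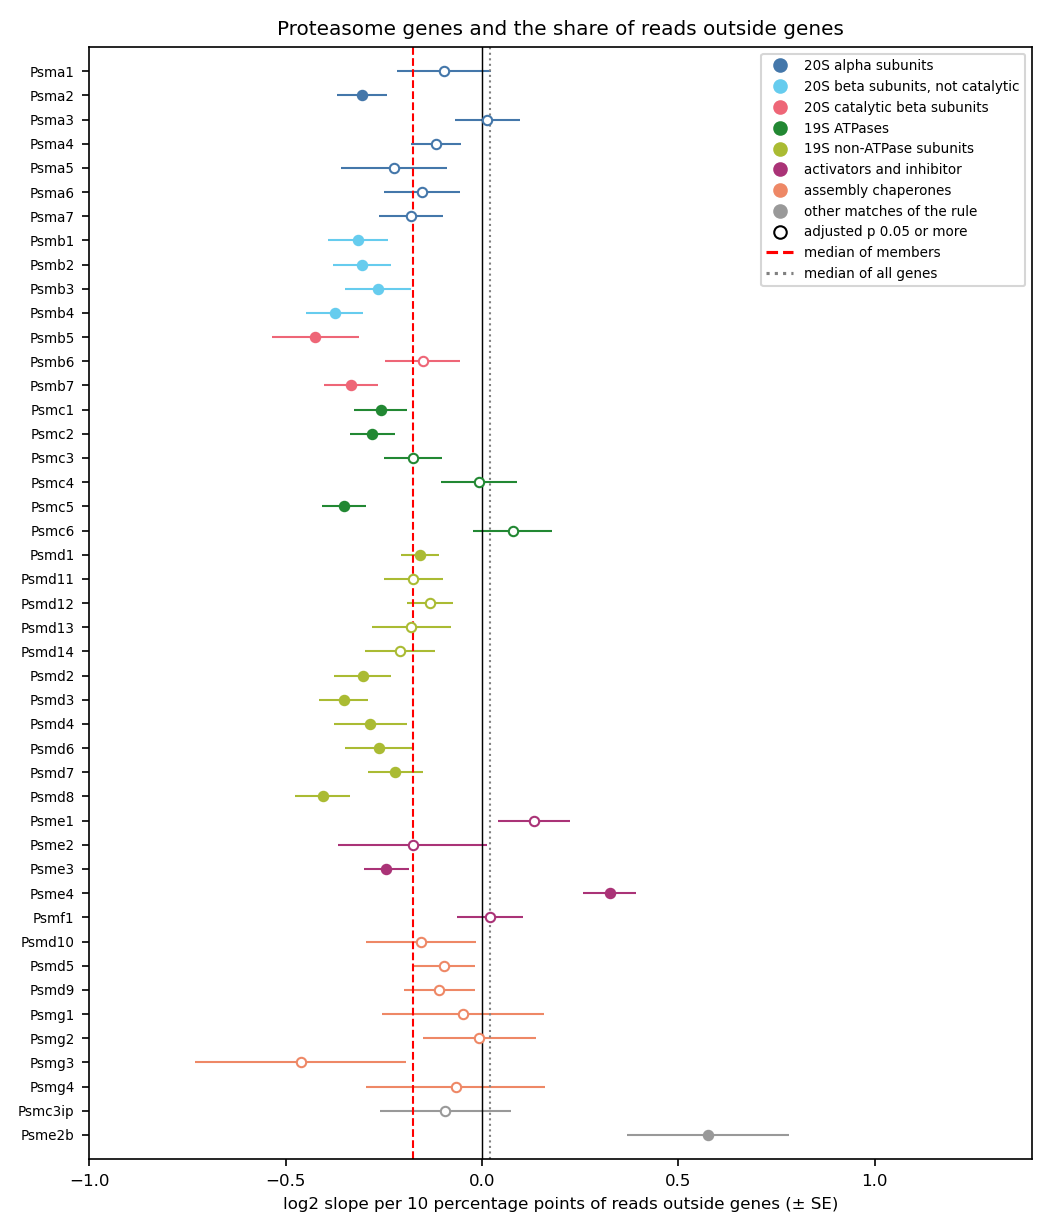
Slope of each tested member on the share of reads outside genes, in log2 units per 10 percentage points with bars of 1 SE, by role, over the 23 IP libraries. Most core and regulatory subunits lie left of 0 and Psme4 and Psme2b lie right of it. Psma8, at 1.89, is not drawn.

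Psmc5 had 56.3, 110 and 190 CPM in the lowest, median and highest of the 9 non-escalating withdrawal libraries. It had 48.4, 87.3, 111, 138 and 90.6 CPM in saline withdrawal, 98.9 and 154 in escalating, 150, 171, 93.3 and 117 in non-escalating, and 87.9, 146 and 134 in saline libraries. All groups overlapped. The lowest value, 48.4, belonged to saline withdrawal set A replicate 1, the library with 70.7% of reads outside genes, and non-escalating replicate 2, with 21.2%, had 171.

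Psmd8 had 17.3, 27.6 and 43.0 CPM in the lowest, median and highest non-escalating withdrawal library. It had 13.2, 19.1, 27.6, 40.0 and 13.6 CPM in saline withdrawal, 35.8 and 27.1 in escalating, 50.2, 57.0, 17.9 and 30.7 in non-escalating, and 15.5, 31.4 and 22.6 in saline libraries. Here too the library with the largest share was lowest, at 13.2, and the one with the smallest share was highest, at 57.0, and the groups overlapped.

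Psme4 ran the other way. It had 19, 50.1 and 72.8 CPM in the lowest, median and highest non-escalating withdrawal library. It had 94.8, 68.9, 61.0, 50.7 and 71.8 CPM in saline withdrawal, 29.6 and 40.8 in escalating, 21.2, 38.0, 61.5 and 37.6 in non-escalating, and 48.3, 38.2 and 35.4 in saline libraries. The library with 70.7% outside genes was highest at 94.8. All 5 saline withdrawal libraries lay above both escalating and all 3 saline libraries while overlapping the other groups. How many of all genes separate in this way was not counted. Psme4 was not called in saline withdrawal against saline (0.58 ± 0.41, adjusted p = 0.782 by edgeR). Psma8 was 0 to 10.3 CPM (median 0.178) in non-escalating withdrawal, 0.206 to 3.41 in saline withdrawal, 0 in both escalating, 0 to 2.99 in non-escalating and 0.0895 to 2.02 in saline libraries.

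**Figure D4:**
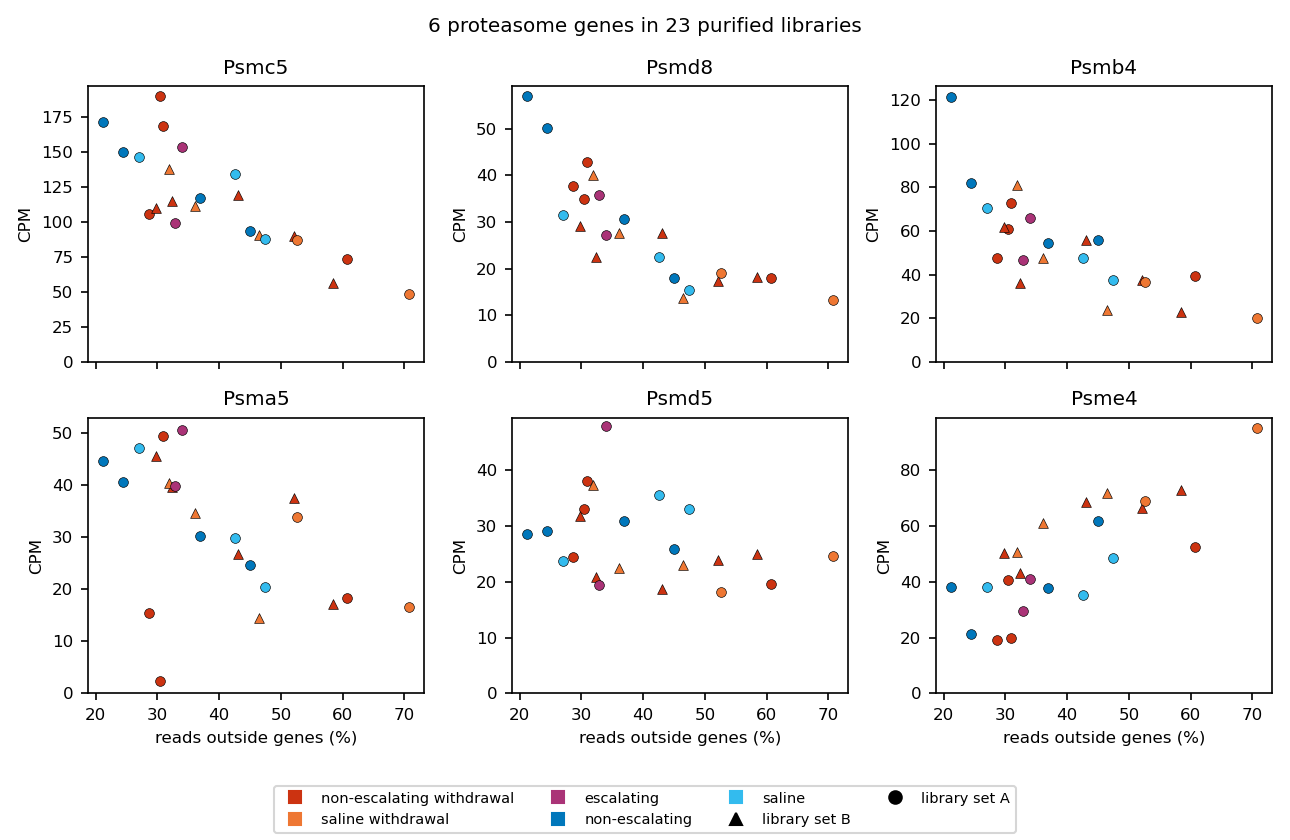
CPM of 6 members against the share of reads outside genes (%), 1 point per IP library, coloured by group and shaped by library set. Psmc5 is lowest at 70.7% with 48.4 CPM, while Psme4 is highest there with 94.8 CPM.

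Within the 8 set B libraries alone 1 member was called lower and 1 higher, beside 1315 of all 13108 genes called in either direction. Within set A alone 9 and 2 members were called, beside 5239 of 16819 genes. The fit of all IP libraries called 8087 of 16908 genes, so fewer genes of any kind were called within a set. In set B alone Psmc5 had a slope of -0.23, Psmd8 -0.26 and Psme4 0.32, and in set A alone these were -0.35, -0.44 and 0.30. Scaling on library totals moved the median of all genes by 0.13 and left 7 members called lower, with 7553 of 16908 genes called in either direction. The median of members minus that of all genes was -0.19 to -0.20 under each other scaling and with DESeq2.

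Lists of genes that work with the proteasome also held genes called lower, where all genes gave 22.8% lower and 25.1% higher. Of 6 ubiquitin and E1 genes 4 were called lower (median slope -0.40), among them the activating enzyme Uba1 (-0.34) and the ubiquitin gene Ubb (-0.59). Of 5 shuttle factors, which carry ubiquitinated proteins to the proteasome, 4 were lower (median -0.27). Among 12 partners 5 were lower (median -0.17), with the maturation factor Pomp at -0.20 ± 0.07 and the deubiquitinase Usp14 at -0.18. Of 10 regulators, with a median slope of -0.01 and 5 above 0, 3 were lower, Nfe2l1 at -0.29 ± 0.05, the CCAAT-binding subunit Nfyc at -0.27 and the unfoldase Vcp at -0.16, and the stress factor Nfe2l2 was higher at 0.73.

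Genes of other cell types moved with the share as well. All 3 immunoproteasome genes were higher (median slope 0.78), as were all 6 endothelial markers (median 0.91), while 6 of 7 indirect-pathway markers were lower and 1 higher (median -0.53). Of the astrocyte markers 1 of 6 was higher and of the microglial markers 2 of 5. The part of these cell types in the slopes of the members was not tested.

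No member was called between groups. In all 7 comparisons edgeR called 0 members and 0% of the 16908 genes, in either direction. DESeq2 and limma voom called 0 members too, while DESeq2 called 1 to 12 genes in all and voom 0. Comparisons that have a group in common share its libraries, so their values are given side by side and not compared. In non-escalating withdrawal against saline withdrawal, 38 of 46 members lay above 0, with a median of 0.18 against 0.01 over all genes, and 1 member had an unadjusted p under 0.05, as did 881 genes. The median was 0.06 within set B and 0.44 within set A, and 0.09 to 0.29 on leaving out a library. In saline withdrawal against saline, 14 of 46 lay above 0 (median -0.33, against 0.08 over all genes), with 1 member and 884 genes at an unadjusted p under 0.05. Leaving out 1 library moved this median between -0.43 and -0.16, the last without saline replicate 3. Non-escalating withdrawal against non-escalating gave 9 above 0 (median -0.32, against 0.09), with 4 members and 763 genes, and -0.45 to -0.23 on leaving out a library.

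The comparisons without withdrawal gave medians of 0.09 for escalating against saline (-0.02 over all genes), -0.09 for escalating against non-escalating (-0.02) and 0.13 for non-escalating against saline (-0.00). Leaving out 1 library gave -0.04 to 0.26, -0.22 to 0.05 and 0.03 to 0.30 for these. The first turned negative without escalating replicate 2, and the second positive without escalating replicate 1 or non-escalating replicate 1. At an unadjusted p under 0.05 these had 0 members and 518 genes, 1 member and 558 genes, and 1 member and 356 genes. The interaction, the cocaine difference after withdrawal minus that without, had a median of 0.08 (0.07 over all genes; -0.07 to 0.18 on leaving out a library), with 0 members and 344 genes. With the share of reads outside genes in the fit, the 2 medians below -0.30 became -0.08 for saline withdrawal against saline and -0.11 for non-escalating withdrawal against non-escalating, and that of non-escalating withdrawal against saline withdrawal became 0.04.

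Catalytic subunits illustrate the spread. Psmb5 had 5.88, 19.1 and 41.2 CPM in the lowest, median and highest non-escalating withdrawal library, 11.3, 19.3, 14.7, 23.3 and 5.68 in saline withdrawal, 24.0 and 33.1 in escalating, 33.5, 47.4, 17.0 and 29.9 in non-escalating, and 11.2, 48.1 and 21.9 in saline libraries. Psmb6 had 13.4, 40.6 and 75.3 CPM in non-escalating withdrawal, 21.2, 36.7, 50.6, 42.1 and 24.4 in saline withdrawal, 80.9 and 56.1 in escalating, 63.8, 36.7, 49.3 and 63.4 in non-escalating, and 49.8, 58.6 and 57.1 in saline libraries. Both subunits reached their lowest values in withdrawal libraries, and each group overlapped another. The median difference of the 3 catalytic subunits was -0.69 for saline withdrawal against saline and -0.49 for non-escalating withdrawal against non-escalating, with none called by edgeR.

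Among activators Psme2 and Psme1 stood out by 1 library. Psme2 had 4.47, 10.2 and 20.1 CPM in the lowest, median and highest non-escalating withdrawal library, 15.7, 12.1, 14.7, 12.4 and 11.9 in saline withdrawal, 12.3 and 9.95 in escalating, 4.49, 174, 9.40 and 11.8 in non-escalating, and 15.9, 20.8 and 9.49 in saline libraries. Non-escalating replicate 2 stood apart at 174 CPM and all other libraries lay at or under 20.8. Psme1, the partner of Psme2 in the same cap and its neighbour on chromosome 14, was lowest in that same library. It had 48.2, 12.5, 54.4 and 47.2 CPM in the 4 non-escalating libraries, against 62.7, 34.2 and 48.6 CPM in the 3 saline libraries.

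The values of Psme2 turned on that library. Its difference was -2.16 ± 0.98 in escalating against non-escalating and -2.23 in non-escalating withdrawal against non-escalating, and without the library these were 0.38 and 0.32. In non-escalating against saline it was 1.70 ± 0.82 (unadjusted p = 0.0496 by edgeR), and -0.85 without the library. In the interaction it was -1.90 ± 0.99, and 0.64 without it. Psme1 had -0.26 in non-escalating against saline, and 0.04 without that library.

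Other members are named as those with the lowest p in a direction, and none was called by edgeR. In non-escalating withdrawal against saline withdrawal these were the base scaffold Psmd1 (0.40 ± 0.19), the ATPase Psmc2 (0.51 ± 0.25), Psme4 (-0.60 ± 0.29) and Psme2b (-1.65 ± 0.68, lowest adjusted p 0.749). Psmd1 had 164, 205 and 307 CPM in the lowest, median and highest non-escalating withdrawal library, against 134, 143, 211, 237 and 114 CPM in the saline withdrawal libraries. The groups overlapped, with 3 saline withdrawal libraries below all 9 others. Psme2b had 0.447, 2.39 and 8.31 CPM in the same order of non-escalating withdrawal libraries, against 16.5, 5.21, 6.14, 11.8 and 13.3 CPM in saline withdrawal, where 3 of 5 libraries lay above all 9 others.

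In saline withdrawal against saline the named members were Psme2b (1.82 ± 1.02), Psme4 (0.58 ± 0.41), the beta subunit Psmb1 (-0.85 ± 0.42) and the assembly chaperone Psmd10 (-1.35 ± 0.57, lowest adjusted p 0.782). Psmd10 had 2.45, 5.70, 7.57, 9.69 and 5.11 CPM in saline withdrawal, against 12.8, 11.4 and 5.82 CPM in saline libraries, which overlapped. In non-escalating withdrawal against non-escalating they were Psme1 (0.64 ± 0.35), the chaperone Psmg2 (0.64 ± 0.52), Psmd10 (-1.07) and Psme2, with a lowest adjusted p of 0.926. In escalating against saline they were Psmc3ip (1.36 ± 0.78), a meiotic recombination factor that matches the symbol rule but is no subunit, the alpha subunit Psma3 (0.55 ± 0.41), Psmd10 (-0.67) and Psma8. Psma8 had no count in either escalating library, and its level in the groups they were set against came mostly from 1 library each, saline replicate 1 with 2.02 CPM and non-escalating replicate 3 with 2.99 CPM. Psmc3ip shares 385 exon bases (21.2%) with Mlx, and without escalating replicate 1 its difference was -0.63. In escalating against non-escalating Psmd13 (0.71) and Psme3 (0.39, and -0.10 without escalating replicate 1) were named, and in non-escalating against saline Psmd3 (0.71 ± 0.40) and Psme3 (-0.25). The interaction named Psme3 (0.57), Psmd1 (0.37) and Psme2b (-2.49 ± 1.21).

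Endothelial markers differed between libraries of these groups too. Their summed level was 82.4 to 3952 CPM (median 785) in non-escalating withdrawal, 1079 to 5448 (median 2023) in saline withdrawal, 488 to 1324 in escalating, 207 to 2859 in non-escalating and 160 to 2091 in saline IP libraries. Their part in the group differences of the members was not tested.

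**Figure D5:**
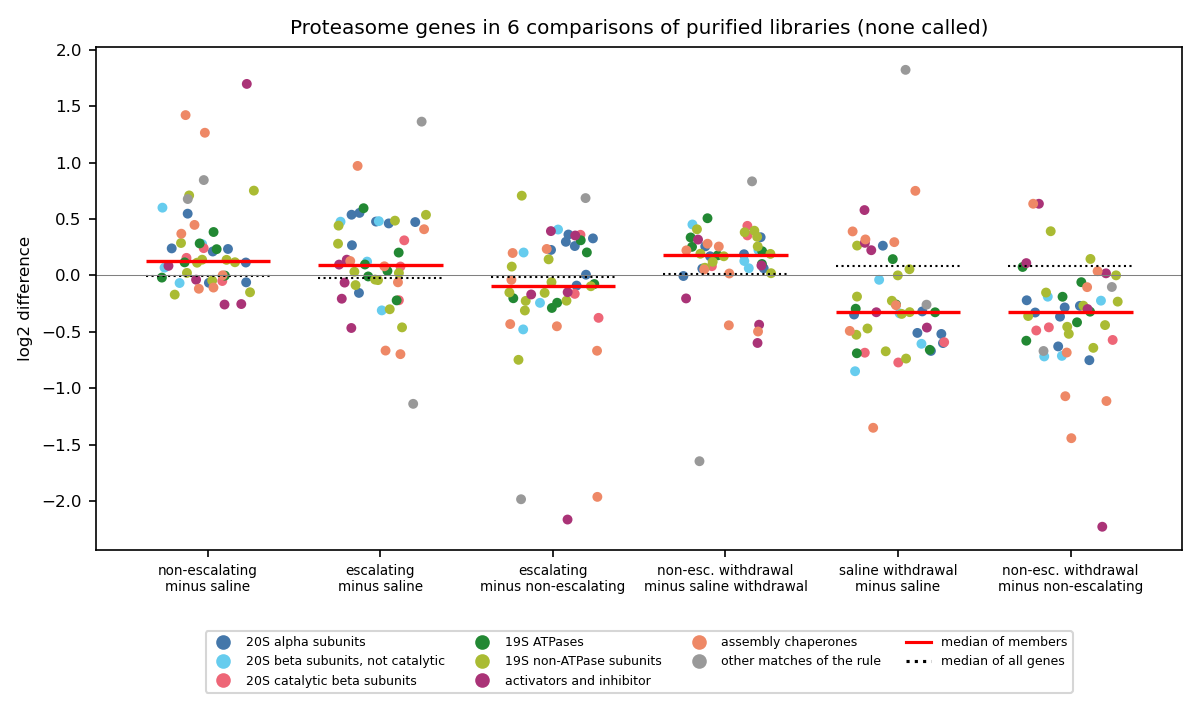
Log2 differences of the tested members in 6 comparisons between groups, 1 point per member, coloured by role, with lines at the median of members (solid) and of all genes (dotted). The medians of -0.33 and -0.32 belong to saline withdrawal against saline and non-escalating withdrawal against non-escalating, and none of the members was called. Psma8 is not drawn.

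Between library sets 1 member differed. Psmc6, an ATPase of the base, was higher in set B than in set A, with a difference of 1.08 ± 0.30 (adjusted p = 0.0400 by edgeR). This 1 call stands beside 2.86% of all genes called higher, and 0 members were called lower beside 1.84% (DESeq2 called 1 lower and voom 0). An unadjusted p under 0.05 was seen for 9 members and 3415 genes. Psmc6 had 11.4, 21.6 and 35.8 CPM in the lowest, median and highest of 8 set B libraries, against 6.26, 10.6 and 16.2 CPM in 15 set A libraries. Of the set B libraries 1 lay within the range of set A. Within non-escalating withdrawal its level was 16.4 to 35.8 CPM in 5 set B libraries, against 6.26 to 14.1 in 4 set A libraries, without overlap. Within saline withdrawal it was 11.4 to 20.8 in 3 against 12.2 and 12.4 in 2, which overlapped. The share of all genes without such overlap was not counted.

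The call of Psmc6 was lost on leaving out any of 9 of the 23 libraries, which gave adjusted p of 0.0515 to 0.0958 by edgeR. All 7 alpha subunits lay above 0 between sets, with a median of 0.50 against 0.15 for all members and -0.13 for all genes. Psma4 was nearest to a call among them, at 0.59 ± 0.20 (adjusted p = 0.0937 by edgeR). Psmd3 at -0.70 ± 0.29 and Psmb3 at -0.32 ± 0.29 had the lowest p among members below 0. IP libraries held 3578445 to 5849243 gene counts in set B, against 3279457 to 19122303 in set A, and the gene lists of the tables differ between the sets except for 1 library. All but that library of set A carry a mark in the title that calls them a copy of another number, and the meaning of this mark is unknown here.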

How the data were processed

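The deposited values are raw counts of reads per gene, 1 table per library, not normalized. The authors, per the submitters' processing notes, aligned reads with STAR 2.0.0e to mm10 and counted them with HTSeq. Of the annotation release and the strand setting nothing is given in the sources used here. A list of 32531 genes is found in 10 libraries and another of 32657 in 16. Replicate 2 of the saline withdrawal IP libraries in set A has the shorter list, as all set B libraries do. Symbols present in both lists, with 242 pairs that differ by a renaming, make up the 31977 genes used, with 99.5% to 99.9% of the counts in genes. Each table ends in 5 entries without a gene, from which the shares of reads outside genes and of ambiguous reads were taken. Ambiguous reads made up 0.942% to 2.85% in IP and 8.61% to 12.8% in input libraries. None of 56 pairs of libraries of a group held identical counts, with a chi-square per degree of freedom of 12.7 to 284.

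Sample titles gave the groups, and the library numbers in the titles gave the sets. Where a title calls the library a copy of another number, that other number was used. The tests used edgeR 4.0.16 in R 4.3.3 (filterByExpr, TMM factors, two-sided quasi-likelihood F test, Benjamini-Hochberg adjustment over all genes tested). The 23 IP libraries entered 1 fit with terms for group and set (16908 genes, 17 residual degrees of freedom). The share of reads outside genes was added as a term for the slopes (16 residual degrees of freedom). IP and input libraries were compared in a fit of 12 and 3 libraries with condition and set (15610 genes, 10 residual degrees of freedom). SE is the log2 difference divided by the square root of F. A count of 0 was given a floor of 3 counts, which covers counting error only, as PCR copies are not independent molecules. Exon lengths and coordinates are from GENCODE M21 (GRCm38), used only for these.

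Members and lists were chosen with earlier results of these data known. All members are accounted for. The text names those called (up to 6 per direction and comparison), or the 2 with the lowest p where fewer than 2 were called, and members set by role: the catalytic subunits, ubiquitin receptor, deubiquitinase, activators, inhibitor and chaperones. The fits were tested on simulated counts. Alternatives were DESeq2 1.42.0, voom in limma 3.58.1, other scalings, no filter, a replicate block, single sets and leaving out each library. Members on chromosome 18 have no sequence shown. Figures were drawn with matplotlib 3.10.9.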

Additional observations from a re-analysis of the deposited data

Results flagged for a closer look

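Of 138 sets of values of a member within a group of 4 to 10 IP libraries, 12 held a library far from the others. The flag is the gap to the nearest library over the range of the group. Its chance rate of about 1 in 20 assumes normally distributed values, which was not checked for CPM. The 12 are therefore not read as an excess over chance, and all but those of Psmc4 and Psme1 were high. Each value below is in CPM, with the range of the other libraries of its group.

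Of these, 4 came from alpha subunits. In non-escalating withdrawal Psma3 had 91.5 in set B replicate 5, against 25.5 to 55.5, and in non-escalating libraries Psma4 had 48.9 in replicate 1, against 29.5 to 31.4. The testis subunit Psma8 had 10.3 in non-escalating withdrawal set B replicate 4, against 0 to 2.92, and 2.99 in non-escalating replicate 3, against 0 to 0.106.

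Another 4 came from the catalytic core and the regulatory particle. In non-escalating withdrawal the catalytic subunit Psmb6 had 75.3 in set A replicate 4, against 13.4 to 42.7. In the same group the lid subunit Psmd11 had 101 in set A replicate 2, against 35.6 to 62.5, and the deubiquitinase Psmd14 had 81.5 in set B replicate 5, against 18.6 to 45.8, the library that was also high for Psma3. The ATPase Psmc4 was low in saline withdrawal set B replicate 3, at 11.4 against 28.5 to 34.2.

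Activators and chaperones gave the rest. Non-escalating replicate 2 held 174 of Psme2, against 4.49 to 11.8, and 12.5 of its partner Psme1, against 47.2 to 54.4. The core chaperone Psmg4 had 3.66 in non-escalating withdrawal set A replicate 4, against 0.671 to 2.01, and 6.35 in saline withdrawal set B replicate 1, against 0.413 to 1.78.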

How the results depend on the processing

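Over 76 results and their alternatives, 1755 of 1865 values stayed on their side of the threshold, for values with no test within the spread between libraries or for counts within 1.5 times, and 11 values for single genes changed sign. This tally says little about stability. It includes counts of 0 members called that stayed 0. For medians of differences the spread was 0.32, about the size of the largest of them (-0.33), so few could leave it. Medians of members changed sign in 25 of 243 alternatives: 12 for IP against input, 8 for the interaction, 3 for escalating against non-escalating and 2 for escalating against saline, each within that spread. The cause of each change was not tested. For IP against input, members called higher numbered 2 with DESeq2 (0 to 1 on leaving out a library). They numbered 0 within set A alone, with voom and with the replicate block. Members called lower numbered 0 within set A and with the block and 1 with voom (0 to 3). All genes called in either direction numbered 2906 with DESeq2, 242 within set A, 920 with voom and 46 with the block. The main fit called 1152. Set B alone holds 1 input, and its median of members was 0.02. For the share of reads outside genes, the median slope was -0.10 with DESeq2 and with RLE factors, -0.046 with library totals and -0.26 within set B. Members called lower numbered 9 within set A and with the block, 7 with totals and 1 within set B (16 to 22 on leaving out a library), and 1 was called higher within set B. All genes called in either direction numbered 5239 within set A, 6277 with the block, 7553 with totals and 1315 within set B. The main fit called 8087. For set B against set A, members called higher numbered 5 with voom, 3 with DESeq2 and with the share in the fit, 2 with totals, and 0 with no filter, RLE factors, the replicate block, saline withdrawal replicate 2 of set A as its own set, and the withdrawal groups alone (0 to 2). In that comparison 1 member was called lower with DESeq2 and with the share in the fit. All genes called between sets in either direction numbered 2716 with voom, 1887 with DESeq2, 2256 with the share in the fit and 1285 with totals. In the same order of settings that gave 0 members higher, they numbered 581, 1037, 260, 550 and 469. The main fit called 794. Of the 25 pairs of libraries that share a number, 10 had a residual correlation over 0.1 (median -0.11, against -0.00 for 78 other pairs), so numbers were not taken as pairs.

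Single genes that reversed were as follows. On leaving out a library, Psme2 ran from -2.53 to 0.38 in escalating against non-escalating, -2.61 to 0.32 in non-escalating withdrawal against non-escalating, -0.85 to 2.07 in non-escalating against saline and -2.28 to 0.64 in the interaction. With voom it had -0.043 in non-escalating against saline and 0.037 in the interaction. Psme1 ran from -0.47 to 0.042 in non-escalating against saline, Psme3 from -0.10 to 0.76 in escalating against non-escalating, and Psmc3ip from -0.63 to 2.17 in escalating against saline. Psmb3 had 0.034 between sets with voom, and Psme4 0.0011 in non-escalating withdrawal against saline withdrawal within set B. Library totals moved the median of all genes by -0.13 in non-escalating withdrawal against saline withdrawal, and by 0.11 in saline withdrawal against saline, where RLE factors and DESeq2 moved it by 0.13. Protein-derived coding lengths were not run, and GENCODE coding lengths, added after the data were seen, took their place. Only 3 inputs and 2 escalating libraries limit these comparisons, and the low depth limits Psma8, Psmg3 and Psmg4.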
